A study of Danio rerio with 18 samples.

Results

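Solute carriers are membrane proteins that move small molecules across the plasma membrane and the membranes of organelles, and the slc gene families are named by sequence and by what their members carry. Some members work alone and others in pairs, such as the heavy chain that brings several amino acid transporters to the cell surface. In the early zebrafish embryo many carrier mRNAs are laid down by the mother, and others are transcribed once the embryo's own genome is switched on.

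The genes described here are the 170 zebrafish genes whose name starts with slc and a digit and whose counts summed to at least 360 over the 18 libraries. They were taken from 404 slc genes in a table of 32520 genes, belonged to 44 families and were grouped into 13 classes by what they carry. All 170 passed the filter on low counts. The rule read names only: slc4a1ap (kanadaptin), slc7a6os (a gene named for lying opposite slc7a6) and slc9a3r1a (a scaffold protein) are not carriers, and slc5a5 and slc5a6a/b, carriers of iodide and of vitamins, stand in the sugar class with the rest of their family. Likewise slc43a3b, which carries purine nucleobases in human cells, stands in the amino acid class, and the nucleotide-sugar class is all of family 35. The 234 slc genes under the minimum were left out. Of these 66 were tested, and 12 were called lower and 3 higher in the mean of the cocktails, beside 13.6% and 15.1% of all genes tested. The balance of lower and higher calls given below is therefore that of the 170 alone. Just inside the minimum were slc27a4 (365 counts), slc5a5 (368) and slc25a15b (377), and just outside it slc1a3a (349), slc37a4a (334) and slc38a8b (323). In 8 of the 170 the cocktail libraries alone held fewer than 360 counts. Of these slc39a5 (271 of 395 counts in the controls), slc14a2 (326 of 561) and slc6a7 (355 of 705) reached the minimum only through the control, the group where they were high, so their place among the members is tied to their decrease; slc27a4, slc5a5, slc25a15b, slc45a4b and slc26a2 were not called.

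RNA was sequenced from whole embryos at 4 h post-fertilisation. The embryos of 8 groups had RfxCas13d, an RNA-cutting CRISPR enzyme steered by a guide RNA (gRNA), together with 1 of 8 cocktails of 25 gRNAs at a stated 10 pg per embryo, and those of the last group were the RfxCas13d control, so that RfxCas13d was shared by all 9 groups. Each group had 2 libraries, which makes 16 cocktail and 2 control libraries. Strain, the number of embryos per library, the targets of the 200 gRNAs and whether the stated amount is per gRNA or per cocktail were not given in the sources used here. Nor was it given whether the control had a gRNA or other RNA beside RfxCas13d. No carrier below is therefore named as a target.

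Gene counts per library ran from 2544027 to 4864939, and the 170 carriers held between 1.133% and 1.303% of them. Unmapped reads made up 10.1% and 10.8% of the table in the controls and 21.6% to 47.3% in the cocktails. Whole-embryo markers moved with the cocktails. Of 11 markers of the enveloping layer, the outer epithelium of the embryo, 9 were lower and 0 higher, and their summed level was 4413 and 4203 CPM (counts scaled to library size) in the controls against a median of 1090 CPM in the cocktails, with a highest of 1851 CPM. Of 5 tested markers of the yolk syncytial layer 4 were lower (999 and 976 CPM in the controls, median 474 CPM in the cocktails, highest 886 CPM). The other, mxtx2, had 231 and 243 CPM in the controls and a median of 325 CPM in the cocktails, a large part of that sum. Of 7 oocyte and maternal markers 5 were higher (1089 and 1095 CPM, median 2291 CPM, lowest 1633 CPM). Among them ddx4 had 276 and 274 CPM in the controls and a lower median, 221 CPM. The blastoderm marker nanog had 1606 and 1537 CPM and a higher median, 1923 CPM. Of 5 blastoderm markers 2 were lower and 0 higher (5112 and 5165 CPM in the controls, median 3463 CPM in the cocktails, highest 3903 CPM). Cocktail 1 replicate 1 stood apart: the enveloping layer and the yolk syncytial layer lists each summed to 4.05 CPM there, and the next lowest libraries, both Cocktail 4 replicate 2, held 656 and 351 CPM. The markers' part in the results below was not tested. In RNA from whole embryos, fewer cells of a type and less RNA per cell cannot be told apart.

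The mean of the 8 cocktails was compared with the control over all 14514 genes tested. Of the 170 carriers, 30 were lower and 36 higher at an adjusted p under 0.05. The 30 included slc39a5, slc14a2 and slc6a7, which reached the count minimum only through the control. Among all genes 28.6% were called, 13.6% lower and 15.1% higher; among genes with at least 360 counts the shares were 33.7%, 14.7% and 19.0%. As a whole, then, the carriers were called about as often as other genes of that abundance, and nothing about carriers is read from the totals. All 16 cocktail libraries lay below both controls for 30 carriers and above both for 30, beside 12.3% and 11.9% of all genes, or 13.7% and 15.0% of those with at least 360 counts. The median change of the 170 was 0.07 on the log2 scale, beside 0.03 for all genes. The scale mattered for the balance: on log2(TPM + 1), where the median of all genes shifted by 0.15, 18 carriers were lower and 38 higher, with 12 of the 30 lower and 2 of the 36 higher calls lost. RLE size factors gave 36 lower and 31 higher, and DESeq2 34 and 32, a balance to the other side. The control mattered for the number: 16 were lower and 16 higher without control replicate 1, and 19 and 20 without control replicate 2. Calls of 10 lower carriers (slc39a5, slc43a3b, slc6a7, slc14a2, slc3a2b, slc2a12, slc35c1, slc4a2a, slc43a2b and slc30a1a) and 13 higher ones (slc29a2, slc16a1a, slc30a9, slc25a51b, slc35f2, slc26a11, slc25a25a, slc25a25b, slc24a4a, slc48a1b, slc46a1, slc35e1 and slc25a28) were made under all 25 other fits tried for this comparison; of them slc35e1 and slc25a28 changed less than 2-fold and would not pass a 2-fold minimum. Cocktail 1 replicate 1 was the lowest cocktail library for 16 of the 30 lower carriers and the highest for 13 of the 36 higher ones; without it 33 were lower and 37 higher.

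**Figure D1:**
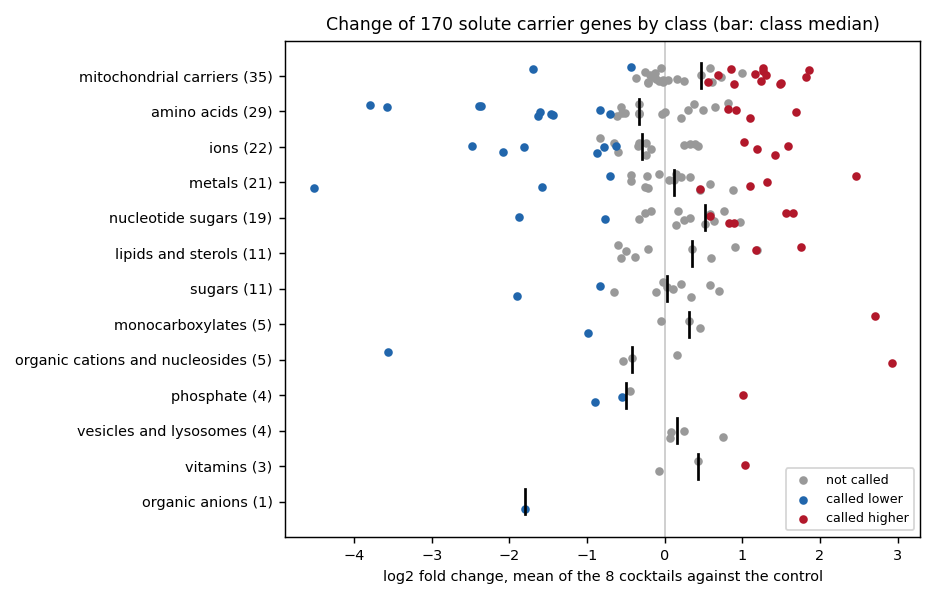
Log2 fold change of each of the 170 carriers (points) in the mean of the 8 cocktails against the control, by class, with the number of genes in brackets; the bar is the class median, blue points were called lower and red points higher. The most blue points are in amino acids (10 of 29) and the most red points in mitochondrial carriers (13 of 35). Among genes with at least 360 counts 14.7% were lower and 19.0% higher, and both class counts were smaller without either control.

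By class, the amino acid carriers held the most lower calls and the mitochondrial carriers the most higher calls, to be read beside the 14.7% lower and 19.0% higher among genes with at least 360 counts. Of 29 amino acid genes 10 were lower and 4 higher, with a median log2 change of -0.33. The 10 included slc6a7, a member only through its high control level, and slc43a3b, which carries purine nucleobases in human cells. The 29 included slc7a6os, which is not a carrier. Of 35 mitochondrial carriers 2 were lower and 13 higher, with a median of 0.47. Of the 19 genes of family 35, the nucleotide-sugar class, 2 were lower and 5 higher (median 0.52). Of 22 genes of the ion class 6 were lower and 4 higher (-0.29), and of 21 metal carriers 3 and 4 (0.12). The 22 included slc4a1ap and slc9a3r1a, which are not carriers. Without control replicate 1 the amino acid counts were 7 lower and 1 higher and the mitochondrial counts 0 and 6; leaving out control replicate 2 gave 7 and 1, and 1 and 7. On log2(TPM + 1) they were 6 and 4, and 1 and 15. The sugar class had 2 lower and 0 higher of 11, the lipid and sterol class 0 and 2 of 11, the phosphate class 2 and 1 of 4, and the carriers of vesicles and lysosomes 0 and 0 of 4.

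Summed TPM, a level per transcript length, showed how much message each class held. The 29 amino acid genes summed to 1575 and 1492 TPM in the controls. In the cocktails they summed to between 759 and 1232 TPM, with a median of 1087, so that every cocktail library lay below both controls. That separation leaned on 1 gene, the heavy chain gene slc3a2b. It held 374 and 366 TPM in the controls and a median of 96.9 TPM in the cocktails. In Cocktail 5 replicate 2 it held 71.9 of 1199 TPM. The sum is therefore not read as a change of the whole class. The 19 genes of the nucleotide-sugar class, the whole of family 35, summed to 745 and 795 TPM in the controls. Their sums ran between 864 and 1261 TPM in the cocktails, all above both. Part of that gap was slc35f2, with 42.6 and 43.0 TPM in the controls and 112 TPM in Cocktail 1 replicate 2, the lowest library. slc35f6 had 180 and 192 TPM in the controls and 239 TPM there. The class goes by family, so its sum is not read as one of nucleotide-sugar transporters alone. The sums of metal carriers, 1020 and 1044 TPM against 1045 to 1517 TPM, were also all above, though the lowest cocktail library barely so; in CPM they overlapped (1462 and 1451 against a lowest of 1450). The mitochondrial sums, 4076 and 3821 TPM against 3819 to 4411 TPM, overlapped although 13 of the 35 genes were higher. The largest part of that sum was slc25a5, an ADP/ATP exchanger of the inner membrane, with 2109 and 1954 TPM in the controls and 1130 to 1993 TPM in the cocktails.

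**Figure D2:**
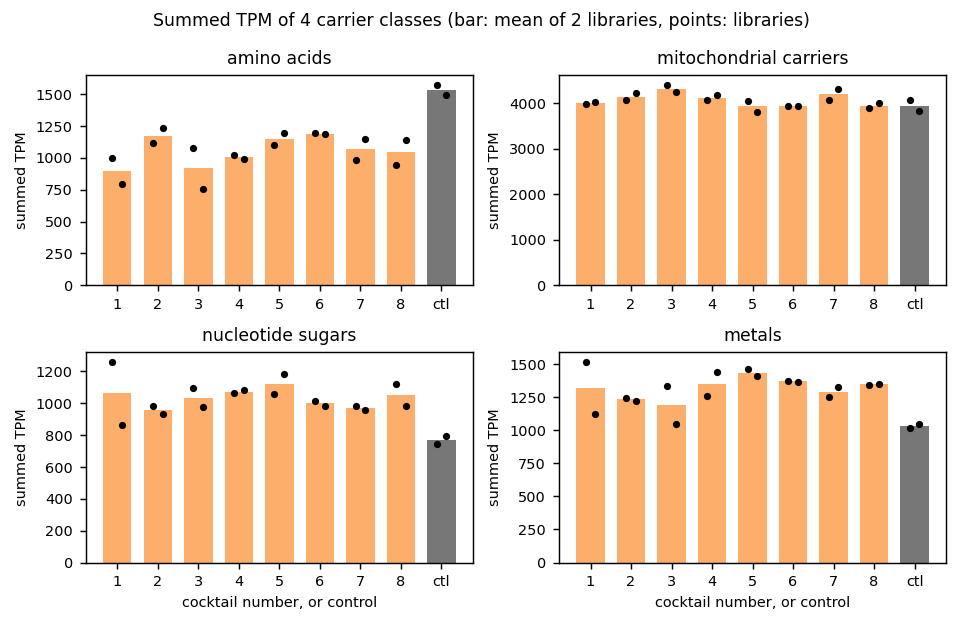
Summed TPM of 4 carrier classes in each group; bars are means of 2 libraries, points are the libraries, and ctl is the control. The amino acid sums lie below both controls (1575 and 1492) in all 16 cocktail libraries, the nucleotide-sugar sums above, the metal sums barely above in the lowest library, and the mitochondrial sums overlap.

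Among the amino acid carriers, the CD98 heavy chain gene, 3 of 6 genes named for family 7 and 3 of 3 in family 43 were lower. The share among genes with at least 360 counts was 14.7%, and these families are small. slc3a2b encodes this heavy chain, which carries light chains of family 7 to the cell surface. It had 565 and 552 CPM in the controls and 3.78 (lowest), 129 (median) and 231 (highest) CPM in the cocktails. No cocktail library came near the controls, and Cocktail 1 replicate 1 was far below the next lowest, Cocktail 4 replicate 1 at 47.9 CPM. The log2 change was -2.37 ± 0.46 (SE, adjusted p = 0.00387), and the adjusted p stayed under 0.05 without either control (0.0488 and 0.0452). Its light chain slc7a8a, a neutral amino acid exchanger, had 298 and 290 CPM in the controls and 0, 73.8 and 124 CPM in the cocktails. The 0 was again in Cocktail 1 replicate 1, and the change of -2.39 ± 0.54 (adjusted p = 0.00872) lost its call without control replicate 1 (0.0869) or 2 (0.0783). Also lower in family 7 were slc7a6, an exchanger of cationic and neutral amino acids (-0.84 ± 0.16), and slc7a3a, a cationic amino acid transporter (-1.44 ± 0.26). The slc7a6 call was lost without control replicate 2 and on every TPM scale (limma, adjusted p = 0.144 on log2(TPM + 1)). That of slc7a3a was lost without control replicate 1, on log2(TPM + 0.1) and on log2(TPM + 1) with no filter. slc7a6os, opposite slc7a6, had 33.4 and 29.2 CPM in the controls and was not called; counts of such neighbours are uncertain, because the library kit does not mark strand.

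All 3 genes of family 43 that reached the count minimum were lower, and the change of each stayed negative under every other fit tried. slc43a3b, which in human cells carries purine nucleobases, had 79.5 and 75.3 CPM in the controls and 0, 6.37 and 28.9 CPM in the cocktails. Cocktail libraries and controls were far apart, with 0 counts in Cocktail 1 replicate 1 and Cocktail 4 replicate 1 and the highest value in Cocktail 7 replicate 2. The mean CPM was 9.48-fold lower (log2 -3.79 ± 0.53, adjusted p = 0.00019). slc43a2b and slc43a1a encode facilitators of large neutral amino acids. slc43a2b went from 50.2 and 48.5 CPM to 1.62, 17.8 and 32.3 CPM (-1.60 ± 0.33). slc43a1a went from 391 and 384 CPM to 138, 259 and 328 CPM (-0.71 ± 0.16); it was not called on log2(TPM + 1), with adjusted p = 0.0527. In both, every cocktail library lay below both controls.

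The proline transporter gene slc6a7 was lower to a different degree in different cocktails. It had 51.6 and 39.5 CPM in the controls and 0, 4.88 and 19.4 CPM in the cocktails (-3.57 ± 0.33, adjusted p = 1.32e-07). Its place among the members is tied to this decrease, because it reached the count minimum only through the control. The libraries of Cocktails 1 and 3 held at most 1.31 CPM, whereas those of Cocktail 6 held 19.4 and 14.4 CPM and those of Cocktail 7 11.6 and 13.04 CPM. Of 8 members of family 38, the sodium-coupled neutral amino acid transporters, 2 were lower and 3 higher, beside 14.7% and 19.0% of genes with at least 360 counts. The lower ones were slc38a3b (50.9 and 39.8 CPM; 7.88, 15.4 and 34.6 CPM; -1.46 ± 0.25) and slc38a2 (32.9 and 37.6 CPM; 0.745, 12.6 and 22 CPM; -1.63 ± 0.45), both with all 16 libraries below the controls. The call of slc38a3b was lost on log2(TPM + 1) (adjusted p = 0.0514). That of slc38a2 was lost without either control (adjusted p = 0.0879 and 0.132), and its lowest value was in Cocktail 7 replicate 1.

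The higher amino acid genes were slc38a5b, a glutamine transporter, slc38a6, slc38a9, the arginine sensor of the lysosome, and slc6a22.1. slc38a5b had 8.06 and 3.31 CPM in the controls and 8.07, 18.8 and 46 CPM in the cocktails. Its lowest cocktail library stood level with the higher control, and the change of 1.69 ± 0.43 (adjusted p = 0.00471) was lost without control replicate 2 (0.146). slc38a6 had 39.9 and 46.7 CPM against 52.2, 89.1 and 149 CPM (1.10 ± 0.23; adjusted p = 0.0549 without control replicate 1). The calls of slc6a22.1 (0.92 ± 0.25; 0.111 and 0.0986) and slc38a9 (0.82 ± 0.30; 0.322 and 0.161) were lost without either control. Of the abundant ones that were not called, slc38a7, a glutamine carrier of the lysosome, had 578 and 486 CPM in the controls and a median of 424 CPM, and slc1a5, a neutral amino acid exchanger, 171 and 148 CPM and a median of 127 CPM; both overlapped the controls.

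**Figure D3:**
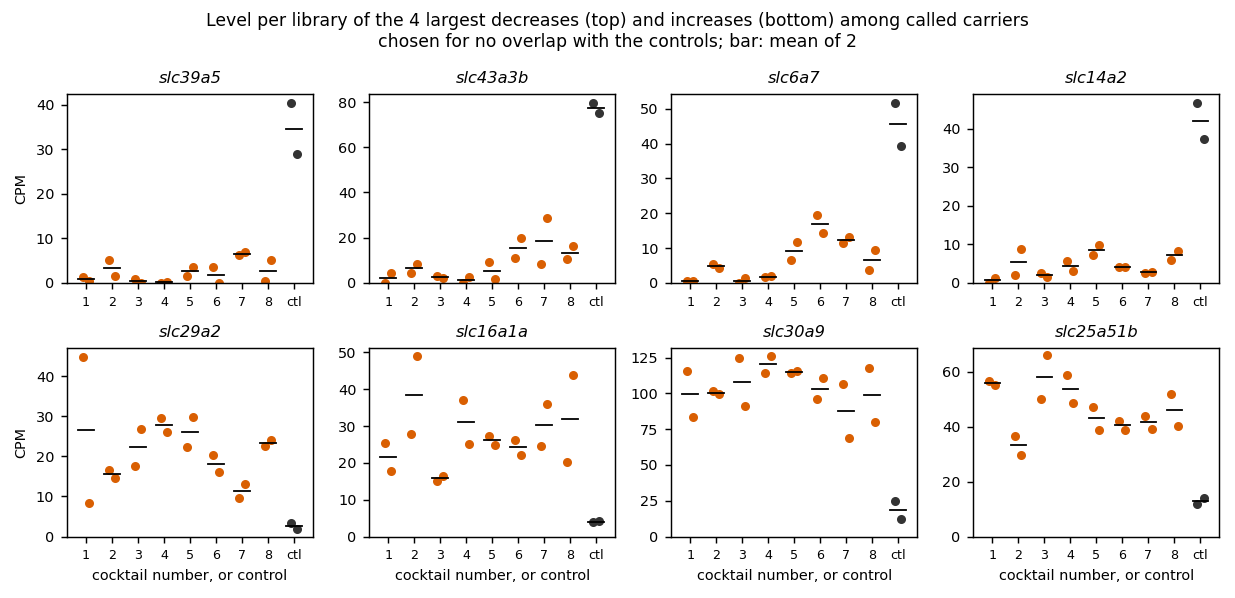
CPM in each library of the 4 carriers with the largest decreases (top) and the 4 with the largest increases (bottom) among called carriers chosen for having all 16 cocktail libraries beyond both controls, by cocktail number and control (ctl); bars are means of 2 libraries. By that choice the 16 cocktail points lie on one side of both controls in all 8 genes: slc39a5 stays at or under 6.83 CPM and slc30a9 at or above 69 CPM. slc39a5, slc6a7 and slc14a2 reached the count minimum only through the control.

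Zinc carriers were called in both directions, 2 lower and 1 higher of 8 in the importer family 39 and 1 lower and 2 higher of 7 in the efflux family 30. Among genes with at least 360 counts 14.7% were lower and 19.0% higher, and nothing about the families is read from such small counts. slc39a5 encodes a zinc importer of the plasma membrane. It had 40.3 and 28.9 CPM in the controls and 0, 1.46 and 6.83 CPM in the cocktails, with 0 counts in 3 libraries. No cocktail library came near the controls, and the mean CPM was 15-fold lower (log2 -4.52 ± 0.54, adjusted p = 2.97e-06), the largest decrease among the 170. Its place among the 170 is tied to this decrease, because it reached the count minimum only through the control. slc30a1a, an exporter of zinc at the plasma membrane, had 62.2 and 60.9 CPM against 4.86, 23.5 and 41.9 CPM (-1.58 ± 0.27, adjusted p = 0.000153). All of its cocktail libraries lay below the controls, Cocktail 1 replicate 1 lowest. slc39a1, another importer, was also lower (-0.71 ± 0.23), but not without either control (adjusted p = 0.226 and 0.12).

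slc30a9, a zinc transporter of mitochondria in human cells, had 24.9 and 12.3 CPM in the controls and 69, 108 and 126 CPM in the cocktails. All cocktail libraries stood well above both controls, which were themselves apart. The mean CPM was 5.59-fold higher (2.46 ± 0.27, adjusted p = 1.16e-06). slc30a4, which loads zinc into vesicles, had 16.8 and 26.8 CPM against 28.1, 55.9 and 76.2 CPM (1.32 ± 0.26; adjusted p = 0.057 without control replicate 1). slc48a1b, a haem transporter, had 91 and 60.9 CPM against 112, 163 and 222 CPM (1.10 ± 0.20, adjusted p = 0.000278), above both controls in every cocktail library. slc39a13 was called at 0.46 ± 0.16 but lost under 12 alternatives, among them DESeq2 (adjusted p = 0.0528) and either control left out (0.304 and 0.154). slc39a6 (117 and 123 CPM, median 137 CPM), slc39a10 (83.2 and 72.3 CPM, median 59.8 CPM) and the iron transporter gene slc11a2 (78.3 and 59.3 CPM, median 61 CPM) overlapped the controls and were not called.

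The largest decreases among ion carriers were those of slc26a1, slc4a4a and slc4a2a. slc26a1, a sulphate and anion exchanger, had 99.8 and 88.9 CPM in the controls and 0, 19.1 and 40.4 CPM in the cocktails (-2.48 ± 0.46, adjusted p = 0.00155). slc4a4a, a sodium bicarbonate cotransporter, had 23.5 and 36.1 CPM against 1.89, 6.5 and 20.5 CPM (-2.08 ± 0.34), and slc4a2a, a chloride/bicarbonate exchanger, 33.2 and 40.7 CPM against 1.89, 10.6 and 30.4 CPM (-1.81 ± 0.34). The calls of slc26a1 and slc4a4a were lost on log2(TPM + 0.1) (adjusted p = 0.0944 and 0.0513). In these 3 genes all cocktail libraries were below both controls and Cocktail 1 replicate 1 was lowest; in slc4a4a and slc4a2a Cocktail 7 replicate 2 was highest. slc8b1, slc9a6a and slc26a5 were also lower, by 0.87, 0.78 and 0.63 on the log2 scale; each call was lost without either control (adjusted p = 0.0861 and 0.287, 0.0944 and 0.106, and 0.283 and 0.122). slc8b1 is the sodium/calcium exchanger of mitochondria and slc9a6a a sodium/proton exchanger of endosomes. slc13a4, a sodium sulphate cotransporter, was the only member of the class labelled organic anions, a label given by family and not by its own cargo. It had 61.3 and 69.6 CPM against 0, 20.6 and 32.9 CPM (-1.80 ± 0.58, adjusted p = 0.0383), below both controls throughout. Its call was lost under 18 alternatives, including without control replicate 1 (log2 -1.88) or 2 (log2 -1.70).

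Other ion carriers were higher. slc26a11, an anion transporter, had 15.7 and 17.5 CPM in the controls and 33.4, 49.9 and 59.5 CPM in the cocktails (1.58 ± 0.25, adjusted p = 6.34e-05). slc24a4a, a potassium-dependent sodium/calcium exchanger, had 17.7 and 14.8 CPM against 19.3, 41.5 and 96.5 CPM (1.42 ± 0.29, adjusted p = 0.000864). Both were above the controls in every cocktail library, and the highest value of slc24a4a was in Cocktail 1 replicate 1. slc9a8, a sodium/proton exchanger (1.02 ± 0.29), was lost without either control (adjusted p = 0.101 and 0.12) and slc12a8 (1.19 ± 0.44) under 17 alternatives, including without control replicate 1 (0.214) or 2 (0.264). slc12a2, the sodium-potassium-chloride cotransporter, had 117 CPM in each control and 50.9, 98.6 and 165 CPM in the cocktails and was not called (adjusted p = 0.448).

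Of 11 genes of the sugar class 2 were lower and 0 higher, with a median log2 change of 0.03. Of 4 phosphate genes 2 were lower and 1 higher. Among genes with at least 360 counts 14.7% were lower and 19.0% higher, and nothing about these classes is read from such small counts. slc2a12, a glucose transporter, had 271 and 224 CPM in the controls and 23.2, 72.4 and 114 CPM in the cocktails (-1.91 ± 0.21, adjusted p = 1.16e-06). The cocktail libraries lay well below the controls, and this gene was called lower in each of the 8 cocktails taken alone. slc2a8, another glucose transporter, had 93.1 and 82.8 CPM against 34.3, 48.5 and 65.5 CPM (-0.84 ± 0.18; adjusted p = 0.0684 without control replicate 1). slc20a1b, a sodium phosphate cotransporter, had 72.1 and 70.8 CPM against 27.8, 38.2 and 52.5 CPM (-0.90 ± 0.19, adjusted p = 0.00104; 0.0856 on log2(TPM + 1)). slc37a2, an exchanger of sugar phosphate for phosphate and by TPM the carrier with the second highest control level, had 676 and 666 TPM in the controls and 383, 513 and 675 TPM in the cocktails. In CPM it went from 899 and 868 to 428, 605 and 790 (-0.56 ± 0.14, adjusted p = 0.00416), a call lost without control replicate 1 (0.0891) or 2 (0.0581). Its relative slc37a1 was higher, from 20.3 and 14.8 CPM to 21.3, 32.7 and 69.8 CPM (1.01 ± 0.29), also lost without either control (0.0531 and 0.197). The glucose transporter gene slc2a3b stayed low and overlapped, with 8.75 and 10.2 CPM in the controls and a median of 12.4 CPM.

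slc14a2, a urea transporter, had 46.5 and 37.4 CPM in the controls and 0, 3.58 and 9.87 CPM in the cocktails (9.52-fold lower in mean CPM, log2 -3.57 ± 0.36, adjusted p = 4.66e-07). It reached the count minimum only through the control, so its place among the 170 is tied to this decrease. slc29a2, an equilibrative nucleoside transporter, had 3.46 and 1.81 CPM in the controls and 8.31, 21.4 and 44.9 CPM in the cocktails. Both extremes of slc29a2 were in Cocktail 1 (44.9 CPM in replicate 1 and 8.31 CPM in replicate 2), and the change of 2.92 ± 0.52 (adjusted p = 0.000254) was the largest increase among the 170. Its relative slc29a1a had 107 and 94 CPM in the controls and a median of 111 CPM, overlapped and was not called (0.16 ± 0.18).

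slc16a1a, a duplicate of the lactate and pyruvate carrier, had 3.92 and 4.22 CPM in the controls and 15.2, 25.2 and 49 CPM in the cocktails (2.70 ± 0.39, adjusted p = 2.92e-05). Its duplicate slc16a1b had 99.8 and 83.4 CPM in the controls and 31.3, 47.9 and 63.8 CPM in the cocktails (-0.98 ± 0.22, adjusted p = 0.00162). The slc16a1b call was lost without control replicate 1 and on every TPM scale (limma, adjusted p = 0.0507 on log2(TPM + 1)). All 16 cocktail libraries were above both controls for the a gene and below both for the b gene. slc16a3, another carrier of lactate and by TPM among the 10 most abundant carriers of the control, had 471 and 399 TPM in the controls and a median of 462 TPM in the cocktails, and was not called.

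Mitochondrial carriers exchange metabolites, nucleotides and cofactors between the matrix and the cytosol. Among the 13 higher ones, slc25a51b, which in human cells brings NAD+ into mitochondria, had 11.8 and 14.2 CPM in the controls and 29.7, 45.6 and 66 CPM in the cocktails (1.82 ± 0.25, adjusted p = 1.36e-05). Its duplicate slc25a51a was rarer, with 1.15 and 2.71 CPM against 1.98, 6.62 and 14.5 CPM; the groups overlapped, and its call (1.86 ± 0.64) was lost without either control (adjusted p = 0.334 and 0.0824). slc25a25a and slc25a25b encode calcium-dependent carriers of ATP-magnesium and phosphate. slc25a25a had 98.8 and 77.7 CPM against 137, 191 and 399 CPM (1.26 ± 0.22, adjusted p = 0.000202) and slc25a25b 10.1 and 13.2 CPM against 20.1, 34.6 and 49.7 CPM (1.49 ± 0.28, adjusted p = 0.000374). Both were above the controls in every cocktail library and highest in Cocktail 1 replicate 1.

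Also higher were both mitoferrin genes. slc25a28, a mitoferrin that brings iron into mitochondria, had 64.7 and 59.6 CPM in the controls and 93.3, 119 and 130 CPM in the cocktails (0.90 ± 0.16, adjusted p = 0.000301). The other mitoferrin gene, slc25a37, had 18.2 and 22.9 CPM against 30.4, 45.8 and 73.2 CPM (1.16 ± 0.24; adjusted p = 0.0554 without control replicate 1), and slc25a38b, a glycine carrier that serves haem synthesis, 22.1 and 17.2 CPM against 29.1, 45.7 and 82.7 CPM (1.27 ± 0.33; 0.119 without control replicate 2). In these 3 genes all 16 cocktail libraries lay above both controls. slc25a46, an outer membrane protein of mitochondrial shape, had 8.98 and 9.04 CPM against 10.5, 22.5 and 44 CPM (1.48 ± 0.36), a call lost without either control (0.0642 and 0.0569). The remaining higher genes were slc25a14, slc25a40 (which carries glutathione in human cells), slc25a42 (coenzyme A), slc25a10 (dicarboxylates) and slc25a44b, with log2 changes between 0.55 and 1.30; each of these 5 calls was lost on leaving out at least 1 control.

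The 2 lower mitochondrial genes were slc25a5 and slc25a16. slc25a5, by TPM the most abundant of the 170, had 1745 and 1599 CPM in the controls and 753, 1211 and 1582 CPM in the cocktails (-0.43 ± 0.16, adjusted p = 0.0455). All cocktail libraries were below both controls, the highest by a small margin, and the call was lost under 17 alternatives, including without control replicate 1 (0.33) or 2 (0.162). slc25a16 had 31.6 and 19.3 CPM against 2.17, 7.89 and 26.9 CPM, overlapped, and was called at -1.70 ± 0.42 (0.181 without control replicate 1). The phosphate carrier gene slc25a3b (574 and 526 TPM in the controls, median 538 TPM) and the oxoglutarate carrier gene slc25a11 (225 and 230 TPM, median 234 TPM) overlapped the controls and were not called.

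Transporters that load nucleotide sugars into the endoplasmic reticulum and the Golgi apparatus feed glycosylation. slc35c1, the GDP-fucose transporter, had 49.1 and 51.2 CPM in the controls and 5.15, 14 and 23.9 CPM in the cocktails (-1.88 ± 0.30, adjusted p = 9.74e-05), below both controls throughout. slc35f2 had 53 and 49.4 CPM against 75.8, 156 and 383 CPM (1.66 ± 0.30, adjusted p = 0.000452), with the 383 CPM in Cocktail 1 replicate 1 and the next highest, 266 CPM, in Cocktail 3 replicate 2. slc35a3b, a UDP-N-acetylglucosamine transporter, had 4.84 and 4.52 CPM against 7.08, 13.8 and 24.1 CPM (1.56 ± 0.42; adjusted p = 0.0893 and 0.0966 without either control). slc35e1 had 101 and 92.5 CPM against 147, 178 and 244 CPM (0.89 ± 0.16, adjusted p = 0.000221), above both controls in all 16 libraries. slc35b4 (-0.76 ± 0.24) and slc35c2 (0.58 ± 0.18) were called but not without either control (0.21 and 0.117, and 0.069 and 0.294), and slc35b2, the transporter of the sulphate donor PAPS, was lost under 18 alternatives (0.337 and 0.145 without either control). slc35f6, with 256 and 268 CPM in the controls and a median of 289 CPM, overlapped.

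Of 11 lipid and sterol genes 2 were called, and of 3 vitamin genes 1, all of them higher. Among genes with at least 360 counts 19.0% were higher, and nothing about these classes is read from such small counts. slc51a, a subunit of the organic solute and steroid transporter, had 4.15 and 5.12 CPM in the controls and 6.52, 14.3 and 33.8 CPM in the cocktails (1.76 ± 0.41, adjusted p = 0.00278; 0.0762 without control replicate 1). slc44a1b, a choline transporter-like gene, had 6.91 and 10.5 CPM against 10.2, 19.6 and 47.8 CPM, overlapped, and was called at 1.17 ± 0.37, but not without either control (0.277 and 0.0697). slc46a1, a proton-coupled folate transporter, had 37.1 and 31.9 CPM against 34.8, 84.3 and 119 CPM (1.03 ± 0.22, adjusted p = 0.00109); the lowest cocktail library, Cocktail 6 replicate 2, lay between the controls. slc10a7 had 110 and 116 CPM against 118, 139 and 192 CPM, all above the controls, and was not called (adjusted p = 0.138). The vitamin C transporter gene slc23a2 (94.7 and 99.1 CPM, median 91.8 CPM) and slc17a9b, a vesicular nucleotide transporter (136 CPM in each control, median 140 CPM), overlapped.

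Zebrafish keep many carrier genes as duplicates named a and b. In 13 pairs both genes were among the 170. The ratio of the a gene to the b gene within a library, which does not depend on library scaling, changed in 5 of the 13, beside 23.9% of 1335 such pairs in the table, and lay beyond both controls in all cocktail libraries in 4, beside 22.3%. For slc16a1a/b the log2 ratio was -4.47 and -4.12 in the controls and -1.93, -0.72 and -0.26 (lowest, median, highest) in the cocktails, a shift of 3.51 ± 0.28 (limma, adjusted p = 1.6e-05). It was the only one of the 13 pairs whose genes were called in opposite directions. For slc30a1a/b the log2 ratio was 2.98 and 2.50 in the controls and -1.03, 1.16 and 2.29 in the cocktails (shift -1.62 ± 0.36, adjusted p = 0.0073), slc30a1b itself being low (7.37 and 10.2 CPM, median 9.14 CPM) and not called. For slc44a1a/b it was 2.83 and 2.03 against -0.12, 0.58 and 1.86 (-1.65 ± 0.38, adjusted p = 0.00903). These 3 pairs did not overlap the controls.

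The other called ratios were those of slc12a7a/b and slc35a3a/b, both with overlap. They changed by -0.76 ± 0.21 in slc12a7a/b, potassium-chloride cotransporters (limma, adjusted p = 0.0241), and by -1.26 ± 0.42 in slc35a3a/b (adjusted p = 0.0467). In slc35a3a/b the median cocktail library was at -0.09. Every library of Cocktails 1 to 4 lay below 0, and those of Cocktails 5 to 8 ran from 0 to 3.31, the highest in Cocktail 7 replicate 1. The ratio of slc4a2a/b lay below both controls in all cocktail libraries (-0.64 and -0.62 in the controls; -4.12, -1.89 and -1.03) but missed the threshold (adjusted p = 0.0699). Both genes rose in slc25a25a/b and slc25a51a/b, whose ratios shifted by -0.19 ± 0.31 and -0.21 ± 0.50 and were not called. The fewest called ratios came without control replicate 1 (1 pair) and without control replicate 2 (3 pairs), and the most without Cocktail 1 replicate 2 (8 pairs).

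**Figure D4:**
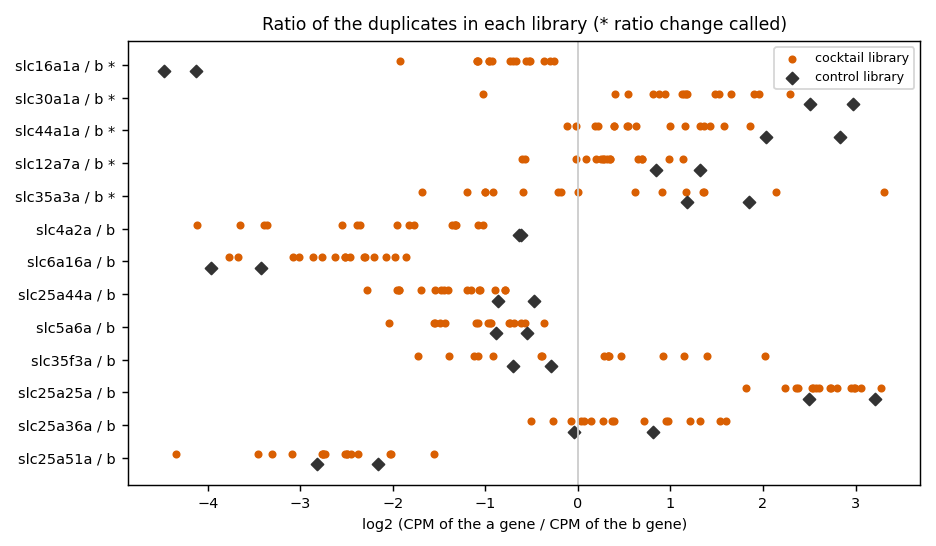
Log2 ratio of the a gene to the b gene in each library for the 13 duplicate pairs; orange points are cocktail libraries, dark diamonds the 2 controls, and an asterisk marks the 5 called ratio changes. The slc16a1 ratio lies above both controls in all 16 cocktail libraries, the slc30a1, slc44a1 and slc4a2 ratios below.

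Taken one at a time, all 8 cocktails were compared with the same 2 controls, and here a call also needed at least a 2-fold change. In Cocktail 1, 23 carriers were lower and 34 higher (7.86% and 12.6% of all genes). Cocktail 3 had 24 and 26 (7.7% and 11.5%), Cocktail 4 had 20 and 29 (6.69% and 11.4%) and Cocktail 5 had 13 and 23 (3.47% and 9.38%). With all libraries, Cocktails 1, 3 and 4 had the most calls among carriers and among all genes alike. Cocktail 2 had 12 and 13 (3.0% and 6.17%), Cocktail 8 had 6 and 16 (2.25% and 6.32%), Cocktail 7 had 7 and 11 (1.67% and 4.52%) and Cocktail 6 had 3 and 9 (1.14% and 4.61%). These counts also rested on single libraries. With 1 of its own libraries left out, Cocktail 1 had 19 and 17 without replicate 1 and 26 and 36 without replicate 2, and Cocktail 3 had 27 and 24, and 15 and 19. Cocktail 4 had 14 and 22, and 12 and 19, and Cocktail 5 had 5 and 20, and 2 and 14, in the same order. Cocktail 2 had 4 and 10, and 6 and 12, Cocktail 6 had 1 and 4, and 0 and 6, Cocktail 7 had 2 and 6, and 4 and 11, and Cocktail 8 had 0 and 6, and 5 and 12. Summed over cocktails, 108 of 1360 tests were lower and 161 higher, beside 4.22% and 8.32% over all genes. All these shares were taken over all genes tested. Genes with at least 360 counts were called more often in the mean of the cocktails, so no excess of carriers is read. The sums were 56 and 97 without control replicate 1 and 61 and 101 without control replicate 2.

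Calls among the 29 amino acid and 35 mitochondrial genes were counted in each cocktail, to be read beside the shares of all genes above. Amino acid genes were lower in 9 cases in Cocktail 1, 9 in Cocktail 3, 8 in Cocktail 4 and 5 in Cocktail 5, and in 3, 3, 1 and 0 cases in Cocktails 2, 7, 8 and 6. Mitochondrial genes were higher in 12 cases in Cocktail 1, 11 in Cocktail 4, 10 in Cocktail 3 and 8 in Cocktail 5, and in 6, 4, 3 and 1 cases in Cocktails 8, 7, 2 and 6. Amino acid genes were higher in 3, 2, 3 and 3 cases in Cocktails 1, 3, 4 and 5. In Cocktails 2, 7, 8 and 6 they were higher in 2, 0, 0 and 1 cases. Mitochondrial genes were lower in 1 case each in Cocktails 1, 3 and 4 and in 0 elsewhere. Cocktails 1, 3, 4 and 5 also had the most calls over all genes in each direction, so no class pattern is read. The median absolute log2 gap between replicates over the carriers was 0.41 in Cocktail 1, 0.44 in Cocktail 3, 0.25 in Cocktail 4 and 0.29 in Cocktail 5. It was 0.31, 0.24, 0.36 and 0.32 in Cocktails 2, 6, 7 and 8 and 0.22 in the control.

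Of the 170 carriers, 138 were lower in no cocktail and 130 higher in none, beside 87.7% and 82.3% of all genes. These shares too were over all genes tested, so no excess of carriers is read. slc14a2 and slc2a12 were called lower in all 8, and slc29a2, slc16a1a, slc30a9, slc25a51b and slc26a11 higher in all 8; among all genes 0.407% and 2.24% met the same rule. slc39a5, slc6a7 and slc35c1 were called lower in 7 cocktails and slc30a4 higher in 7. By contrast slc3a2b, slc7a8a and slc26a1, all below both controls in every cocktail library, were called in 3 cocktails each, with at least 2-fold change and an adjusted p under 0.05. Because the controls are shared, agreement between cocktails in these calls is not read as a result. slc14a2, slc39a5 and slc6a7 also reached the count minimum only through the control, so their calls are tied to the choice of members.

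**Figure D5:**
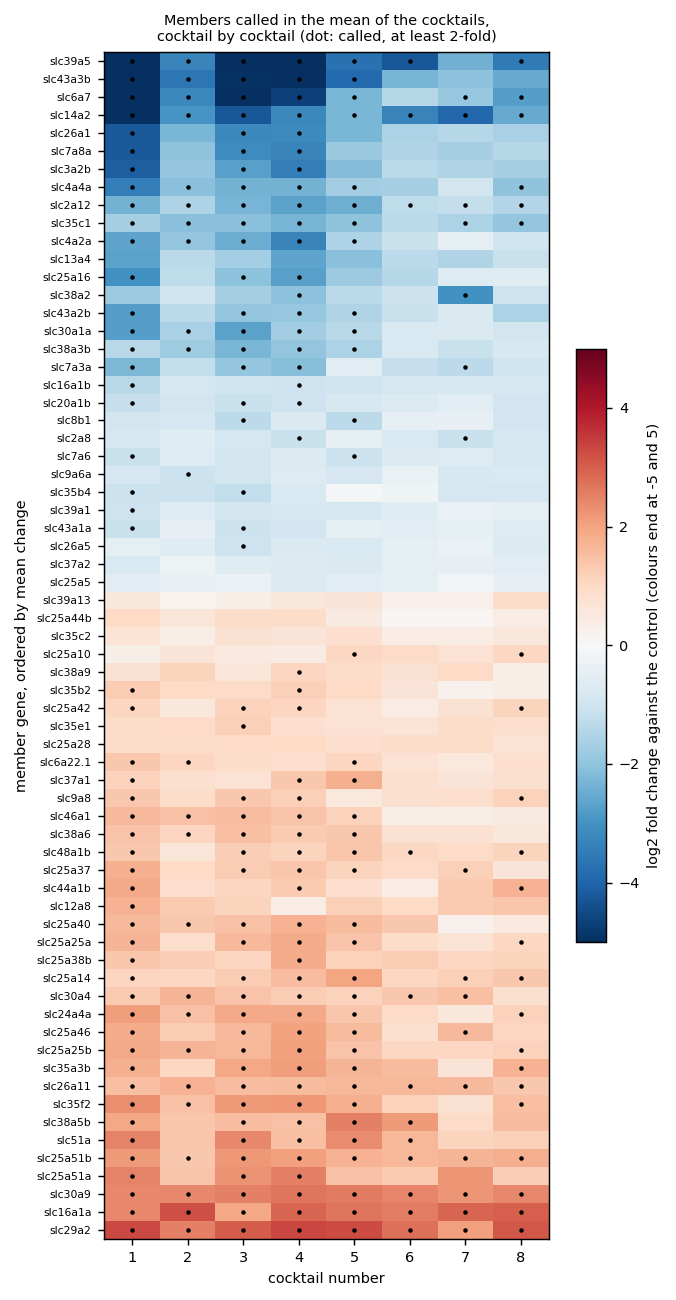
Log2 fold change of the 66 called carriers (rows, ordered by mean change) in each cocktail against the control; dots mark calls at 2-fold or more and colours end at -5 and 5. Dots run across all 8 columns for slc14a2 and slc2a12 at the top and for slc29a2, slc16a1a, slc30a9, slc25a51b and slc26a11 below. slc39a5, slc6a7 and slc14a2 reached the count minimum only through the control.

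A comparison that gives the controls no weight set each cocktail against the mean of the other 7. The controls still shared in the filter, the scaling and the estimate of the spread. At an unadjusted p under 0.05 by edgeR, 83 of 1360 tests were lower and 108 higher, and DESeq2 called 10 lower. No share over all genes was taken for these numbers or with a library left out, so nothing about carriers is read from them. By edgeR with the adjusted p, 0 carriers were lower and 5 tests were higher out of 1360, beside 0.13% and 0.172% over all genes (0.241% higher in Cocktail 6, 0.358% in Cocktail 7 and 0.22% in Cocktail 8). These counts moved with single libraries: without Cocktail 1 replicate 2 they were 22 lower and 48 higher, without Cocktail 1 replicate 1 they were 7 and 9, without Cocktail 3 replicate 1 they were 5 and 6, and 2 or 3 were higher without either library of Cocktail 7 or without Cocktail 8 replicate 1. slc6a7, with the control values given above, was higher in Cocktail 6 (log2 2.46 ± 0.39 against the other 7, adjusted p = 0.00258) and in Cocktail 7 (1.93 ± 0.41, adjusted p = 0.0237). In each case the libraries still lay below both controls, with log2 changes against the control of -1.43 ± 0.53 in Cocktail 6 (adjusted p = 0.111) and -1.89 ± 0.54 in Cocktail 7 (adjusted p = 0.0348). Both slc6a7 calls against the other cocktails were lost without either library of the cocktail concerned and on every TPM scale. The slc6a7 call in Cocktail 7 was also lost with both controls left out of the fit. slc35a3a was higher in Cocktail 7, with 75.6 and 34.8 CPM against a median of 10.2 CPM in the other cocktails and 11.8 and 17.8 CPM in the controls (1.98 ± 0.27, adjusted p = 0.000412). That median hides a split: group means were 6.2 to 10.2 CPM in Cocktails 1 to 4 but 23.9, 30.3 and 32 CPM in Cocktails 5, 6 and 8. The highest other cocktail library, at 37.6 CPM, lay above Cocktail 7 replicate 2, so a raised level was not particular to Cocktail 7. The Cocktail 7 replicates differed, and the call was lost without Cocktail 7 replicate 1. slc4a2a was higher in Cocktail 7 (24.2 and 30.4 CPM, median of the others 9.6 CPM, change 1.58 ± 0.36, adjusted p = 0.0406). This call was lost under 15 alternatives, among them either control, both controls, either Cocktail 7 library and single libraries of other cocktails left out. slc22a31, of the organic ion transporter family, was higher in Cocktail 8 (45.1 and 49.8 CPM, median of the others 22.3 CPM; 1.18 ± 0.23, adjusted p = 0.0182). slc22a31 in Cocktail 8 lay above both controls, at 38.7 and 28.6 CPM, but was not called against them (0.49 ± 0.33, adjusted p = 0.357). Its call against the other cocktails was lost without either library of Cocktail 8 and on every TPM scale.

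Carriers and carrier partners whose symbols do not start with slc and a digit were read for comparison. Such genes numbered 66, of which 38 were tested; 9 were lower and 6 higher, beside 13.6% and 15.1% of all genes tested, with a median log2 change of 0.15. slco1d1, an organic anion transporter gene, had 32.7 and 35.2 CPM in the controls and 0, 0.774 and 5.64 CPM in the cocktails (-5.95 ± 0.45), a larger decrease than in any of the 170. Sodium pumps keep the sodium gradient that many carriers use, and of 7 of their genes tested 3 were lower and 0 higher. Among them atp1b3b (372 and 342 CPM against 288, 328 and 380 CPM, -0.11 ± 0.14) overlapped the controls and was not called. The sodium pump genes atp1a1a.1 (889 and 920 CPM against 228, 498 and 644 CPM, -0.92 ± 0.17) and atp1b1a (168 and 180 CPM against 2.7, 53.9 and 80.5 CPM, -2.03 ± 0.46) were lower in all 16 libraries. ucp2, an uncoupling protein of the mitochondrial carrier fold, was lower as well (1492 and 1418 CPM; 703, 984 and 1249 CPM; -0.59 ± 0.15). sfxn3, which carries serine into mitochondria in human cells, was higher (14.5 and 16 CPM; 32.4, 52.6 and 67.5 CPM; 1.72 ± 0.25). bsg, the partner that brings lactate carriers of family 16 to the surface, had 111 and 132 CPM in the controls and a median of 149 CPM, and was not called (0.28 ± 0.21).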

How the data were processed

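Per the labels, libraries of whole-embryo total RNA were made with a Nextera XT kit, which does not mark strand; the submitters' processing notes name bcl2fastq 2.20 and the build danRer11. Which aligner and counter were used was not given in the sources used here. The authors deposited raw counts and TPM per gene for each library. The 4 rows that name no gene (22.6% to 55.5% of reads) were left out. Counts were TMM-scaled (as are the CPM) and tested in edgeR 4.0.16 (R 4.3.3, quasi-likelihood, robust, common coefficient of variation 0.280) with 1 coefficient per group over 18 libraries, after its filter at a minimum count of 10; p-values were Benjamini-Hochberg adjusted over 14514 genes. The SE beside an edgeR change was its size divided by the square root of the F statistic of its test, so it is approximate. Duplicate ratios were tested in limma 3.58.1 on log2 CPM (prior count 2). Nothing says that replicates came from separate clutches, so p-values measure the spread between these libraries. Alternatives were DESeq2 1.42.0, RLE scaling, no filter, a replicate block, only the groups compared, each library left out, other fold minimums, and limma on log2(TPM + 0.1) and on log2(TPM + 1), a scale that understates changes of low genes.

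Members, classes and lists were chosen with earlier results of these data known. The naming rule took the 12 largest decreases and 12 largest increases among carriers whose cocktail libraries all lay beyond both controls, the 10 highest by control TPM, the leading called and uncalled gene of each class, duplicates, genes called in the most cocktails or against the other 7, and fixed examples. Other genes named were chosen after their values were seen. No sequences or coordinates are printed.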

Additional observations from a re-analysis of the deposited data

Results flagged for a closer look

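Differences between cocktails passed the test of one cocktail against the other 7 in 5 cases, all higher. slc6a7, the proline transporter gene, was higher by 2.46 (log2) in Cocktail 6 and by 1.93 in Cocktail 7. Both calls were lost on leaving out either library of that cocktail and on the TPM scale (adjusted p = 0.221 and 0.351 on log2(TPM + 1)). The call in Cocktail 7 was also lost with both controls left out of the fit. slc35a3a was higher by 1.98 in Cocktail 7. Of the alternatives tried, it was lost only without Cocktail 7 replicate 1, and DESeq2 and limma on log2(TPM + 1) called it (adjusted p = 4e-06 and 0.0167). Its group means in Cocktails 5, 6 and 8 (23.9, 30.3 and 32 CPM) also lay above those of Cocktails 1 to 4 (6.2 to 10.2 CPM). slc4a2a was higher by 1.58 in Cocktail 7, a call lost under 15 alternatives, with adjusted p from 0.000341 to 0.415 over all of them. slc22a31 was higher by 1.18 in Cocktail 8, and was lost without either library of that cocktail and on the TPM scale (0.188 on log2(TPM + 1)). The causes were not tested.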

How the results depend on the processing

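All comparisons with the control shared the same 2 control libraries, and the counts moved with single cocktail libraries too. The effect of depth on low carriers was not tested. Leaving out 1 library at a time gave 16 to 33 carriers lower and 16 to 41 higher in the mean of the cocktails, 56 to 147 calls lower and 97 to 187 higher per cocktail, 0 to 22 lower and 2 to 48 higher against the other 7, and 1 to 8 duplicate pairs. The extremes came without control replicate 1 for the fewest calls against the control and for the pairs, and without Cocktail 1 replicate 2 for the most calls in each count but the mean lower one (33 without Cocktail 1 replicate 1). Lower carriers in the mean numbered 18 on log2(TPM + 1), 11 on log2(TPM + 0.1), 15 on log2(TPM + 1) with no filter and 18 at a 2-fold minimum. Calls lower per cocktail numbered 49 on log2(TPM + 0.1) and 68 on log2(TPM + 1) with no filter. Against the other 7, lower calls numbered 10 by DESeq2, 19 with no filter and 3, 1 and 2 on the TPM scales in the same order, and higher calls 20 with no filter, 3 with only the groups compared and 1 on each TPM scale. The replicate block gave 30 carriers lower and 34 higher, 107 and 154 calls per cocktail, 0 and 5 against the other 7, and 4 duplicate pairs; deviations of same-numbered libraries correlated between -0.12 and 0.13. Of the 66 calls, 14 lower and 20 higher were lost without control replicate 1, and 11 and 17 without control replicate 2. Uncalled changes near 0 reversed: on leaving out 1 library, slc16a3 ran from -0.11 to 0.030, slc35a3a from -0.10 to 0.49, slc11a2 from -0.40 to 0.0054, slc30a1b from -0.17 to 0.30 and slc25a36a from -0.20 to 0.65; on log2(TPM + 1), slc16a3 was 0.021, slc25a11 0.034, slc23a2 0.039 and slc2a3b -0.12; by DESeq2 and RLE scaling, slc30a1b was -0.0167 and -0.0175 and slc25a36b -0.0273 and -0.0277. The causes were not tested.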
